A study of Mus musculus with 10 samples.

Results

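Metallothionein and zinc transport genes were followed in bulk RNA-seq of mouse liver after hepatocyte-directed loss of Bap1 and acute injury with carbon tetrachloride (CCl4), a toxin that centrilobular hepatocytes convert to a reactive form. The 6 genes were chosen by name, Mt1, Mt2, Mtf1, Slc30a1, Slc30a10 and Slc39a14, and all 6 were among the 55291 genes of the deposited count table and among the 17015 genes that passed the filter on low counts. All 10 mice were females of 16 to 20 weeks carrying a Cas9 allele behind a Lox-Stop-Lox cassette, and all received an AAV8 vector with a U6-driven guide RNA and Cre recombinase under the hepatocyte TBG promoter. The guide was either non-targeting (NTC) or directed at Bap1 (sgBap1), so the NTC mice also carried the vector, Cre and Cas9. After 10 days the mice were given CCl4 in olive oil or olive oil alone (vehicle, Veh) into the peritoneum, and the right liver lobe was taken 48 hours later. The vehicle groups held 2 livers each (NTC-Veh and sgBap1-Veh) and the CCl4 groups 3 each (NTC-CCl4 and sgBap1-CCl4), every liver from a different mouse, so the p-values measure the spread between mice of the same group. The vector reaches hepatocytes and not every one of them, and whole liver RNA also holds the transcripts of the other liver cells.

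Metallothioneins are small cysteine-rich proteins that bind zinc and copper and buffer free zinc inside the cell, and the liver makes them in large amounts under stress. MTF1, the product of Mtf1, is a zinc finger transcription factor that binds metal response elements when free zinc rises, and Mt1, Mt2 and the zinc exporter gene Slc30a1 are its classic targets; glucocorticoids and interleukin 6 also induce the metallothioneins. Proteins of the ZnT (SLC30) family carry zinc out of the cytosol, and those of the ZIP (SLC39) family carry it in: ZnT1 (Slc30a1) sits in the plasma membrane, SLC30A10 is known as a manganese exporter, and ZIP14 (Slc39a14) brings zinc, manganese and iron into hepatocytes and is induced by interleukin 6.

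On GRCm38 with GENCODE vM21, Mt2 (ENSMUSG00000031762.7) lay at chr8:94172664-94173568 and Mt1 (ENSMUSG00000031765.8) at chr8:94179082-94180327, both on the plus strand with 5.51 kb and no other gene between them. Mtf1 (ENSMUSG00000028890.13) lay at chr4:124802104-124849800, Slc30a1 (ENSMUSG00000037434.7) at chr1:191906767-191913247 and Slc30a10 (ENSMUSG00000026614.6) at chr1:185454848-185468762, all on the plus strand, and Slc39a14 (ENSMUSG00000022094.15) at chr14:70303469-70351425 on the minus strand. No stretch of 50 bases, the read length, was shared on the same strand between the transcripts of Mt1 and those of Mt2 or any other gene, and for Slc39a14 the shared share was 0.187%. Gm45774 overlaps Mt2 on the other strand and takes up 45.8% of the 50-base stretches of Mt2 in reverse, but its mean count was 22.4. Mtf1, Slc30a1 and Slc30a10 also have an overlapping gene on the other strand.

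The sequences just upstream of Mt1, Mt2 and Slc30a1 are shown because these are the MTF1 targets among the genes followed and because the metallothioneins moved together. They come from RefSeq on GRCm38.p6, are written 5′ to 3′ on the plus strand and end before the annotated transcript, and capitals mark the metal response element core, TGCACNC or TGCGCNC, on either strand.
Mt2, chr8:94172368-94172617: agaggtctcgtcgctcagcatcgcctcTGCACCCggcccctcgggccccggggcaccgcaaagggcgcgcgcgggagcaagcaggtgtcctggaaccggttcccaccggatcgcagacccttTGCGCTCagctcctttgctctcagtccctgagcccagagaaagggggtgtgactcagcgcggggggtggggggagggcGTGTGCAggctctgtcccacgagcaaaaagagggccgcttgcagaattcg
Mt1, chr8:94178839-94179081: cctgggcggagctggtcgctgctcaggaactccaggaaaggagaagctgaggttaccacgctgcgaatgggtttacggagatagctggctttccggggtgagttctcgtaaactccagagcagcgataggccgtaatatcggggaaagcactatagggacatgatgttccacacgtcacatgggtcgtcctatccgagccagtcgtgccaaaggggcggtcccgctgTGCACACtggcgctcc
Slc30a1, chr1:191906531-191906766: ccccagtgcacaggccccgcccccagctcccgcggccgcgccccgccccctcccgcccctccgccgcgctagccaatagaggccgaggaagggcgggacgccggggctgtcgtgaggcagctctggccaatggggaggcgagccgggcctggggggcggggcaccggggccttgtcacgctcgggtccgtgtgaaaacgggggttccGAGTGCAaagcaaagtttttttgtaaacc

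Of the 6 genes, 5 matched a promoter window of 250 bases before and 50 bases after the RefSeq start, and Slc39a14 did not. In the whole 300-base windows the core occurred 4 times for Mt2, 3 times for Mt1, 3 times for Slc30a10 and 2 times for Slc30a1, and these letters were not in the window of Mtf1. For Slc30a10, 2 of the 3 matches overlapped on opposite strands. For Mt1, the core at position -23 is the one printed, and the others lay at 3 and 21, past the RefSeq start, counted as position 1. Mt1 has 3 annotated transcripts, and which start site the liver uses was not tested. The printed stretch need therefore not hold the whole Mt1 promoter, and the cores at 3 and 21 may be part of it. Among the 32851 windows of the RefSeq table, 25.7% held at least 1 core, 7.11% at least 2, 1.97% at least 3 and 0.517% at least 4. The glucocorticoid receptor palindrome, found in 0.475% of windows, matched in the window of Mt1 at -94. The antioxidant response element core TGACNNNGC, found in 12.4%, matched in those of Mt2 at -79 and of Slc30a1 at -82. The STAT palindrome TTCNNNGAA, found in 8.3%, matched in none of the 5 windows. Such matches describe letters and are not binding data.

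The libraries held 33047904 to 52199904 counts, at which 3 counts correspond to 0.0511 to 0.112 CPM, the unit of each gene's counts relative to its library total. Bap1, the targeted gene, ranged from 29.51 to 34.8 CPM in the NTC livers and from 16.99 to 21.84 CPM in the sgBap1 livers, without overlap, and differed by -0.91 on the log2 scale with vehicle and by -0.65 with CCl4 (edgeR, adjusted p = 0.02078 and 0.02951). The 7 hepatocyte markers in the table, such as Alb, summed to 112100 to 154500 CPM in vehicle livers and 67780 to 86920 CPM in CCl4 livers. The 7 macrophage markers summed to 161.5 to 456 CPM with vehicle and 778.5 to 1172 CPM with CCl4, and the 6 stellate cell markers to 90.17 to 141.8 CPM and 325.6 to 1196 CPM, with no marker of these 3 lists at 0 in any liver. These shifts of the sums ran with CCl4 in both genotypes, but not every macrophage marker followed its sum. In NTC livers 5 of the 7 were called higher and none lower, against 27.4% and 26.6% of all genes. In sgBap1 livers 4 were called higher, and Clec4f and Timd4 were called lower, against 29% and 28% of all genes. With vehicle, marker levels also ran with genotype: the macrophage markers summed to 237.1 and 161.5 CPM in NTC-Veh and 456 and 325.1 CPM in sgBap1-Veh livers, and Csf1r, the receptor of a macrophage growth factor, was 2.08 times as high in sgBap1-Veh (edgeR, adjusted p = 0.04867). The 7 T, NK and B cell markers, none at 0, summed to 3.907 to 8.467 CPM in NTC-Veh and 10.97 to 12.54 CPM in sgBap1-Veh livers, and the hepatocyte markers to 123900 to 154500 CPM and 112100 to 117700 CPM, each without overlap. The hepatocyte sum was mostly Alb (92940 to 116200 CPM in NTC-Veh livers), and the list was split. Alb, Apoa1 and Hnf4a were lower in sgBap1-Veh livers without overlap, and Ass1 was higher without overlap. Ttr, Serpina1c and Cps1 overlapped, and no hepatocyte marker was called. Of all genes tested, 19.2% were lower and 21.7% higher without overlap between the genotypes with vehicle. Such a separation of 2 from 2 livers thus does not set a single marker apart, and no such share is given here for sums. With CCl4 the genotypes overlapped in all 3 sums. For the interaction 6 of the 7 macrophage markers had an unadjusted p under 0.05, against 10.4% of all genes. None of these markers was called for it, against 0% of all genes. The part of these shifts in the differences given here, by treatment or by genotype, was not tested. In whole liver RNA fewer cells of a type and less RNA per cell cannot be told apart. A single liver stood apart: in sgBap1-CCl4 replicate 2 the 5 fat cell markers, none at 0, summed to 138.5 CPM against 8.45 to 16.34 CPM in the other 9 livers, where up to 3 were at 0, and its stellate markers were the 1196 CPM just given. Without it, each of the 6 genes kept its calls in the comparisons that use this liver, and so did the 53 other list genes tested, 34 of them called with CCl4 in sgBap1 livers and 1 between genotypes with CCl4.

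All CPM values carry TMM scaling, and differences are log2 fold changes from a model of all 4 groups, called when the adjusted p of edgeR's quasi-likelihood test (Benjamini-Hochberg over the 17015 genes) was under 0.05. With CCl4 in NTC livers, 2 of the 6 genes were called, both lower (Slc30a1 and Slc39a14), where 53.9% of all genes tested were called, 27.4% higher and 26.6% lower. With CCl4 in sgBap1 livers, 5 of the 6 were called, Mt1 and Mt2 higher and Mtf1, Slc30a1 and Slc30a10 lower, where 57% of all genes were called, 29% higher and 28% lower. With so much of the transcriptome called, a call in these comparisons does not set a gene apart.

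Between genotypes, none of the 6 genes was called by edgeR, either with vehicle, where 0.406% of all genes were called, or with CCl4, where 0.329% were. At an unadjusted p under 0.05 there were 3 with vehicle (Mt1, Mt2 and Mtf1), where 12.3% of all genes fell, and 5 with CCl4 (all but Slc39a14), where 14% fell. The interaction, which asks whether the response to CCl4 differed between the genotypes, called none of the 6 and 0% of all genes, with 2 of the 6 (Mt1 and Mt2) at an unadjusted p under 0.05 against 10.4% of all genes. DESeq2's Wald test, the test the study used, called Mt2 with vehicle (adjusted p = 0.03049), Mt1 and Mt2 with CCl4 (0.004019 and 0.005534), and Mt1 and Mt2 for the interaction (0.0002362 and 0.0001199). That test called 3.64%, 3.08% and 2.7% of all genes with an adjusted p in these 3 comparisons, so the genotype calls of the metallothioneins depend on the test.

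**Figure D1:**
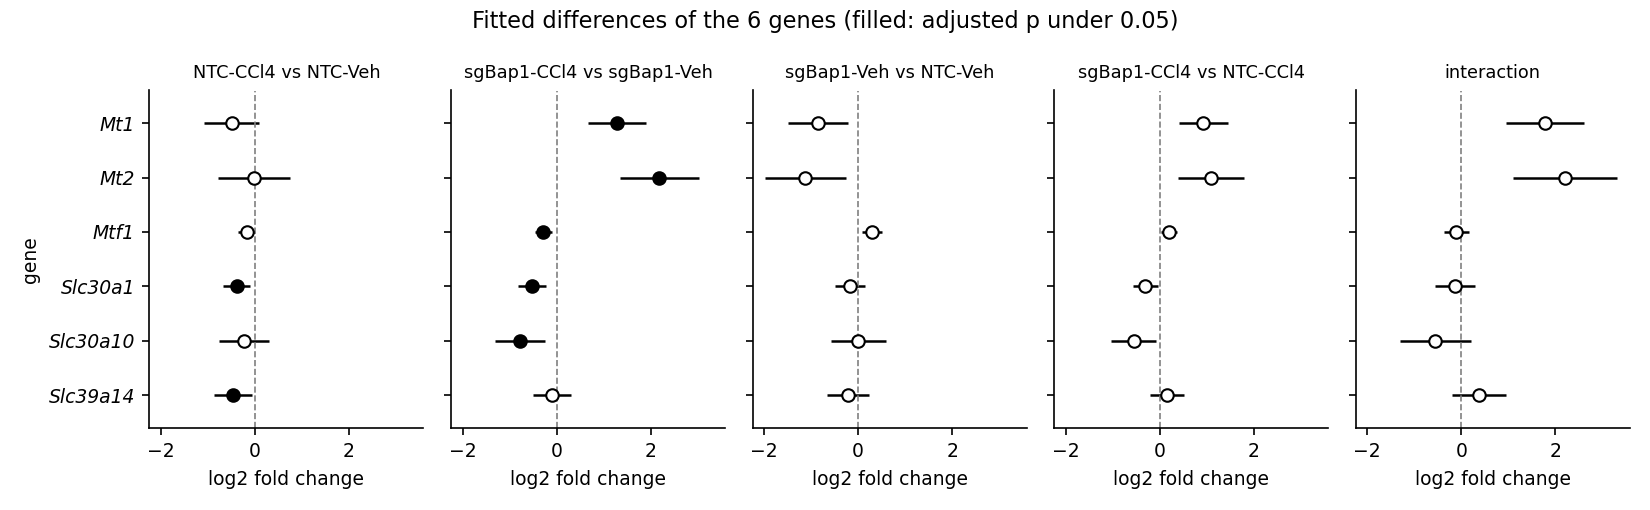
Log2 fold changes of the 6 genes (rows) in the 4 pairwise comparisons and the interaction (panels). Points are the fitted values of edgeR, lines their 95% intervals, and filled points have an adjusted p under 0.05. Filled points stand only in the 2 comparisons of CCl4 with vehicle, and the intervals of Mt1 and Mt2 for the interaction start at 0.95 and 1.11.

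Mt1, the more abundant metallothionein by count, was 465.7 and 291.3 CPM in the NTC-Veh livers and 162.6 and 256.9 CPM in the sgBap1-Veh livers. After CCl4 it was 220.6, 244 and 340.7 CPM in NTC livers and 482.4, 475.6 and 576.3 CPM in sgBap1 livers. Every sgBap1-CCl4 liver was above every liver of the other 3 groups, both sgBap1-Veh livers were below both NTC-Veh livers, and the NTC livers with and without CCl4 overlapped. Ordered by their means, the groups ran sgBap1-CCl4 (511 ± 56.3 CPM, SD, n = 3), NTC-Veh (378 ± 123, n = 2), NTC-CCl4 (268 ± 63.7, n = 3) and sgBap1-Veh (210 ± 66.7, n = 2). The ranges of the last 3 overlapped between neighbours in this order, and that of sgBap1-CCl4 began just above the highest NTC-Veh liver.

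With CCl4, Mt1 rose 2.44-fold in sgBap1 livers (log2 fold change 1.29, SE 0.27, adjusted p = 0.002789), and the value without sgBap1-CCl4 replicate 2 was 1.34 (adjusted p = 0.00841). Among all genes, 37.3% were likewise higher without overlap in this comparison. In NTC livers the difference was -0.50 (SE 0.26, 95% interval -1.08 to 0.08, adjusted p = 0.1335) and was not called. The contrast of the genotypes pointed opposite ways in the 2 treatments. With vehicle, Mt1 was 0.554 times the NTC level in sgBap1 livers (log2 -0.85, SE 0.29, adjusted p = 0.254), and with CCl4 1.90 times (0.93, SE 0.24, adjusted p = 0.1283). Neither was called by edgeR. Leaving out 1 liver moved the value with vehicle between -1.218 (sgBap1-Veh replicate 2) and -0.478 (NTC-Veh replicate 1), being -0.5626 without sgBap1-Veh replicate 1. The macrophage, lymphocyte and hepatocyte marker sums given above also separated the genotypes with vehicle. The share of all genes without overlap was 19.2% for lower with vehicle and 10.1% for higher with CCl4. The interaction was 1.78 (SE 0.37, 95% interval 0.95 to 2.62, adjusted p = 0.1177), and 0.694% of all genes had a smaller p. Without sgBap1-CCl4 replicate 2 it was 1.83, and without any 1 of the 10 livers 1.408 to 2.148.

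Mt2 was 245.8 and 124.6 CPM in NTC-Veh livers and 70.08 and 100.2 CPM in sgBap1-Veh livers. With CCl4 the NTC livers held 144.5, 142.6 and 258 CPM and the sgBap1 livers 383.1, 350.7 and 427.2 CPM. As for Mt1, the sgBap1-CCl4 livers were the 3 highest of the 10 and the 2 NTC groups overlapped. The sgBap1-Veh livers were the 2 lowest for Mt2, whereas for Mt1 1 of them (256.9 CPM) lay above 2 NTC-CCl4 livers. The rise with CCl4 in sgBap1 livers was 4.55-fold (log2 2.19, SE 0.37, adjusted p = 0.0009871; 2.25 and adjusted p = 0.004233 without sgBap1-CCl4 replicate 2).

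In NTC livers the Mt2 difference with CCl4 was -0.03 (SE 0.34, 95% interval -0.80 to 0.74, adjusted p = 0.9521). NTC-Veh replicate 1 held nearly as much Mt2 as the highest NTC-CCl4 liver, and without that replicate the value was 0.54 (adjusted p = 0.2594). In sgBap1 against NTC livers Mt2 differed by -1.12 with vehicle (SE 0.38, adjusted p = 0.262) and by 1.09 with CCl4 (SE 0.31, adjusted p = 0.1685; 1.16 without sgBap1-CCl4 replicate 2). The value with vehicle was -0.5541 without NTC-Veh replicate 1 and -1.532 without NTC-Veh replicate 2. The interaction was 2.21 (SE 0.49, 95% interval 1.11 to 3.32, adjusted p = 0.1351), with a smaller p for 1.11% of all genes, and was 2.28 without sgBap1-CCl4 replicate 2 and 1.645 to 2.622 without any 1 liver. Being lower in sgBap1 with vehicle and higher with CCl4, without overlap in either, was a layout that Mt1 and Mt2 shared with 222 genes in all, 1.3% of those tested, and the reverse layout was found for 234 genes, 1.38%.

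**Figure D2:**
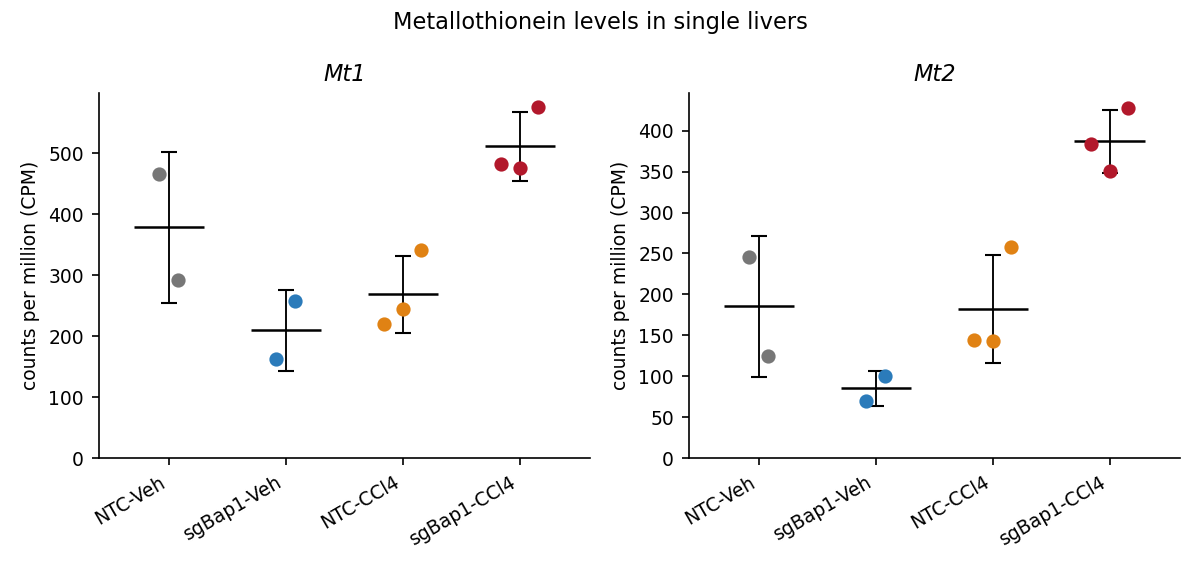
Mt1 (left) and Mt2 (right) in CPM in each of the 10 livers by group. Points are single livers, bars the group mean and whiskers 1 SD. The sgBap1-CCl4 livers sit highest in both panels, at 475.6 to 576.3 CPM for Mt1 and 350.7 to 427.2 CPM for Mt2, and the sgBap1-Veh livers of Mt2 sit lowest.

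Together, Mt1 and Mt2 made up 0.0559% and 0.03538% of all counts in the NTC-Veh livers and 0.01945% and 0.02887% in the sgBap1-Veh livers. The shares were 0.04127%, 0.04351% and 0.06904% in NTC-CCl4 livers and 0.09738%, 0.102% and 0.1086% in sgBap1-CCl4 livers. These shares use the plain library totals and no scaling factor, and they again placed all 3 sgBap1-CCl4 livers on top.

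The balance of the pair shifted with CCl4. Mt2 counts per Mt1 count were 0.5278 and 0.4277 in NTC-Veh livers, 0.4311 and 0.3899 in sgBap1-Veh livers, 0.6553, 0.5844 and 0.7573 in NTC-CCl4 livers and 0.7941, 0.7373 and 0.7413 in sgBap1-CCl4 livers. All 6 CCl4 livers were above all 4 vehicle livers, and the genotypes overlapped within each treatment. The mean log2 difference between CCl4 and vehicle within genotype was 0.68, a 1.60-fold higher ratio, being 0.48 in NTC and 0.89 in sgBap1 livers (two-sided exact permutation test of 100 arrangements, p = 0.01, the smallest it can give; adjusted p = 0.04 over 4 ratio tests). Between genotypes the log2 ratio differed by -0.21 with vehicle and by 0.19 with CCl4. These opposite values cancel in the mean within treatment of -0.01 (exact permutation test of 120 arrangements, p = 0.9), which thus says little of either treatment. The ratio needs no scaling between libraries, and it was chosen after the levels of both genes had been seen.

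**Figure D3:**
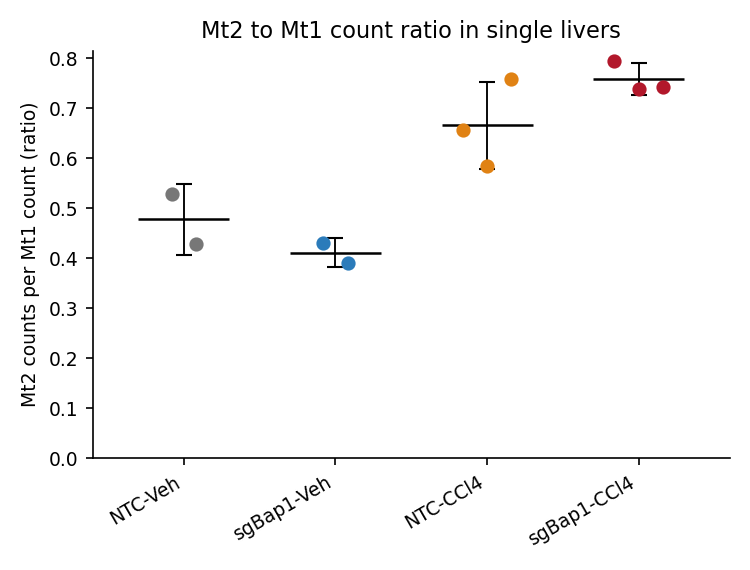
Mt2 counts per Mt1 count in each liver by group, with the group mean (bar) and 1 SD (whisker). The 4 vehicle livers lie between 0.3899 and 0.5278 and the 6 CCl4 livers between 0.5844 and 0.7941.

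Mtf1, the gene of the zinc sensor that drives the metallothioneins, varied far less than Mt1 and Mt2. It was 17.75 and 18.48 CPM in NTC-Veh, 21.93 and 22.61 CPM in sgBap1-Veh, 15.14, 16.74 and 16.14 CPM in NTC-CCl4 and 19.04, 17.82 and 18.05 CPM in sgBap1-CCl4 livers. The sgBap1 livers were above the NTC livers of the same treatment in both cases, and the CCl4 livers below the vehicle livers of the same genotype, each without overlap. By these values Mtf1 and the metallothioneins were not ordered alike: the group with the most Mtf1, sgBap1-Veh, had the least Mt1 and Mt2. The mean of Slc30a1, also a target, was 59.51 CPM in that group. This was below NTC-Veh (67.08 CPM) and above NTC-CCl4 and sgBap1-CCl4 (51.09 and 41.4 CPM). Like Mtf1, Slc30a1 was lower with CCl4 in both genotypes. MTF1 activity was not measured.

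Mtf1 fell with CCl4 in sgBap1 livers (log2 -0.28, SE 0.08, adjusted p = 0.01461; -0.26 and adjusted p = 0.04391 without sgBap1-CCl4 replicate 2). The call was lost without sgBap1-Veh replicate 2 (adjusted p = 0.07747) and with no filter beyond 1 count in total (adjusted p = 0.07486), and with library size as the only scaling the sign turned. In NTC livers the difference was -0.18 (SE 0.08, adjusted p = 0.09643). Of all genes, 34.9% were lower without overlap with CCl4 in sgBap1 livers and 35% in NTC livers. In sgBap1 against NTC livers it differed by 0.30 with vehicle (SE 0.09, adjusted p = 0.2077), where 21.7% of all genes were higher without overlap, and by 0.19 with CCl4 (SE 0.07, adjusted p = 0.2841). The interaction was -0.10 (SE 0.12, adjusted p = 0.8339).

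Slc30a1, the plasma membrane zinc exporter and a direct MTF1 target, was 68.85 and 65.31 CPM in NTC-Veh and 52.69 and 66.32 CPM in sgBap1-Veh livers. With CCl4 it was 52.38, 49.07 and 51.82 CPM in NTC and 39.03, 36.24 and 48.93 CPM in sgBap1 livers. The CCl4 livers were below the vehicle livers of their genotype without overlap, and the sgBap1-CCl4 livers were below the NTC-CCl4 livers, 48.93 CPM lying just under 49.07 CPM. The exporter thus ran opposite to the metallothioneins in the sgBap1 livers. It fell with CCl4 by 0.39 on the log2 scale in NTC livers (SE 0.13, adjusted p = 0.02863) and by 0.52 in sgBap1 livers (SE 0.13, adjusted p = 0.006799; -0.44 and adjusted p = 0.01884 without sgBap1-CCl4 replicate 2).

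The call in NTC livers was lost when any of the 5 NTC livers was left out (adjusted p 0.05467 to 0.1347), and that in sgBap1 livers without sgBap1-Veh replicate 2, the liver with 66.32 CPM (-0.35, adjusted p = 0.09388). Between genotypes Slc30a1 differed by -0.17 with vehicle (SE 0.15, adjusted p = 0.7209) and by -0.30 with CCl4 (SE 0.12, adjusted p = 0.2918), where 10.2% of all genes were lower without overlap. The interaction was -0.13 (SE 0.19, 95% interval -0.55 to 0.29, adjusted p = 0.8734).

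Slc30a10, the manganese exporter gene, was 41.79 and 34.33 CPM in NTC-Veh, 37.22 and 38.85 CPM in sgBap1-Veh, 27.74, 30.55 and 39.27 CPM in NTC-CCl4 and 30.29, 17.43 and 18.68 CPM in sgBap1-CCl4 livers. Of the sgBap1-CCl4 livers, 2 held the lowest levels of all 10, and the third lay inside the range of the NTC-CCl4 livers. It fell with CCl4 in sgBap1 livers by 0.78 on the log2 scale (SE 0.23, adjusted p = 0.01794; -0.63 and adjusted p = 0.04997 without sgBap1-CCl4 replicate 2). The call was lost without sgBap1-Veh replicate 1, sgBap1-Veh replicate 2 or sgBap1-CCl4 replicate 3 (adjusted p 0.06835, 0.08567 and 0.05408).

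In NTC livers the Slc30a10 difference with CCl4 was -0.23 (SE 0.23, adjusted p = 0.4422). The sgBap1 and NTC livers with vehicle could not be told apart (95% interval of the log2 difference -0.59 to 0.58), and with CCl4 the difference was -0.55 (SE 0.21, adjusted p = 0.2879). For the interaction it was -0.55 (SE 0.33, adjusted p = 0.6318). The log2 ratio of Slc30a10 to Slc30a1 counts, also chosen after the levels had been seen, differed with CCl4 by 0.16 in NTC and by -0.30 in sgBap1 livers, and between genotypes by 0.19 with vehicle and by -0.27 with CCl4. These opposite values cancel in the stratified mean, for which the exact permutation tests gave p = 0.77 and p = 0.8, so the mean says little of either stratum.

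Slc39a14, whose product ZIP14 is the metal importer induced by interleukin 6 in liver, was 469 and 361.2 CPM in NTC-Veh and 352.5 and 361.6 CPM in sgBap1-Veh livers. With CCl4 it was 301.9, 230.4 and 365.4 CPM in NTC and 353.9, 302.8 and 347.5 CPM in sgBap1 livers. All neighbouring groups overlapped. The difference with CCl4 in NTC livers was called, at -0.47 (SE 0.18, adjusted p = 0.04866), but the highest NTC-CCl4 liver exceeded the lower NTC-Veh liver, and it was called in 3 of the 10 fits that left out a liver and in 5 of the 9 other settings. Without NTC-Veh replicate 1 the value was -0.27 (adjusted p = 0.3579).

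In sgBap1 livers Slc39a14 differed by -0.09 with CCl4 (SE 0.18, 95% interval -0.50 to 0.31, adjusted p = 0.6851). Between genotypes it differed by -0.22 with vehicle (adjusted p = 0.7531) and by 0.16 with CCl4 (adjusted p = 0.6992), and the interaction was 0.38 (SE 0.26, adjusted p = 0.6825). No rise of this importer was called in either genotype at 48 hours.

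**Figure D4:**
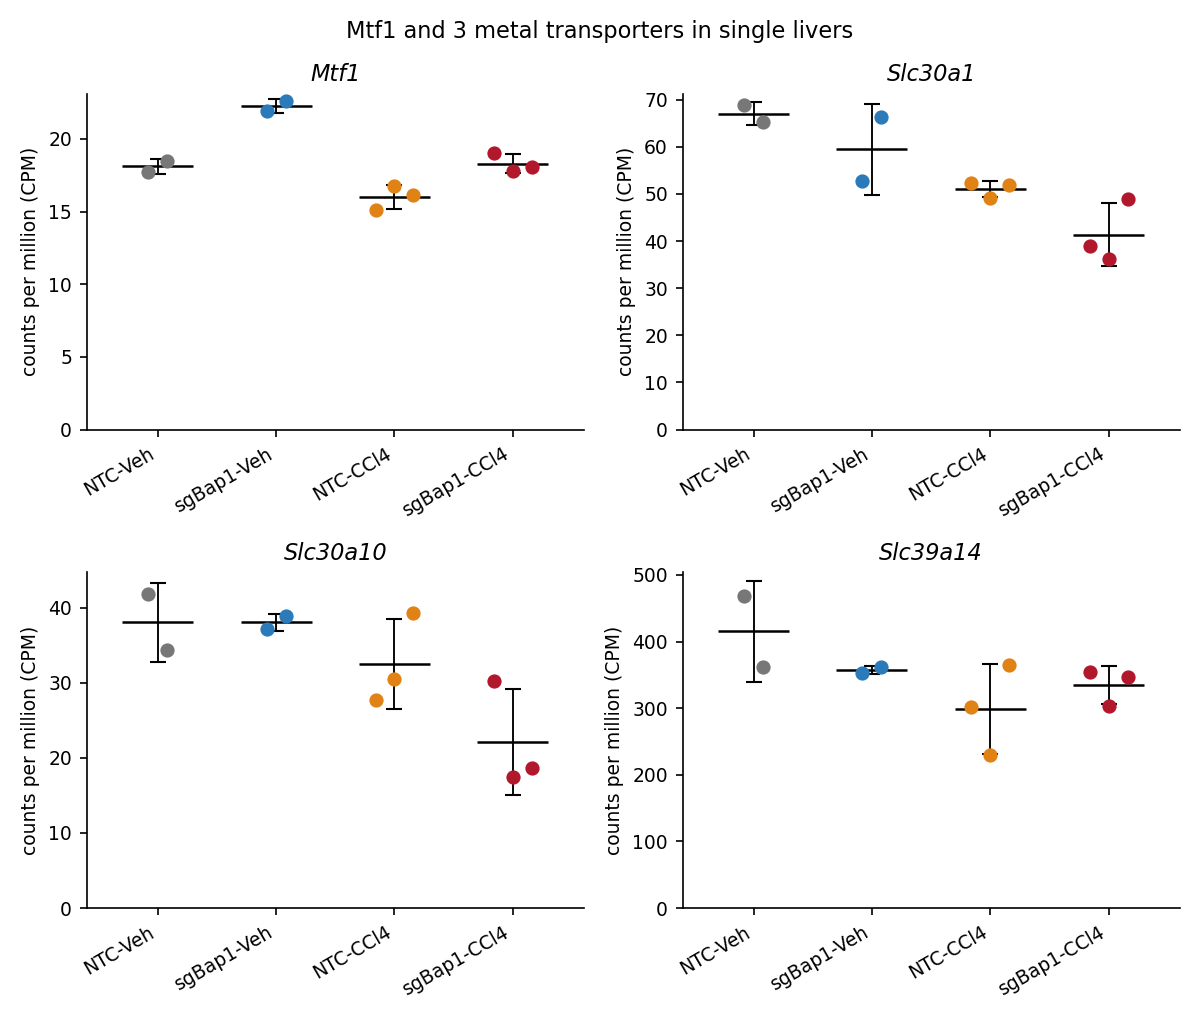
Mtf1, Slc30a1, Slc30a10 and Slc39a14 in CPM in each liver by group, with the group mean (bar) and 1 SD (whisker). Mtf1 spans 15.14 to 22.61 CPM and Slc30a1 36.24 to 68.85 CPM, and the lowest livers of Slc30a1 and Slc30a10 are sgBap1-CCl4 livers.

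The falls with CCl4 were relative to the bulk of the transcriptome. With library size as the only scaling, the median over all genes of the log2 fold change with CCl4 moved from 0.03 to 0.50 in NTC and from 0.04 to 0.52 in sgBap1 livers, and the calls of all genes in NTC livers from 4659 higher and 4519 lower to 8500 higher and 2061 lower. In sgBap1 livers they moved from 4942 higher and 4758 lower to 8614 higher and 2388 lower. Under that scaling Mt1 and Mt2 in sgBap1 livers were 1.77 and 2.66 higher and still called, Slc30a1 and Slc30a10 in sgBap1 livers were -0.05 and -0.31 and not called. The sign changed in NTC livers for Mt2 (0.47), Mtf1 (0.29, called higher, adjusted p = 0.02988), Slc30a1 (0.08), Slc30a10 (0.25) and Slc39a14 (0.01), and in sgBap1 livers for Mtf1 (0.20) and Slc39a14 (0.38). The falls given above are thus falls against the median gene. Of those that were called, Slc30a1 and Slc30a10 in sgBap1 livers stayed below 0 against the plain totals, without a call, and the others turned. The interaction of Mt1 was 1.77 under this scaling and 1.78 under TMM.

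Per kilobase of the longest coding transcript, a rough way to set levels of different genes beside each other, Mt1 and Mt2 were the most abundant of the 6 in every group. In sgBap1-CCl4 livers Mt2 stood at 757.3 ± 75.14 and Mt1 at 471.4 ± 51.87 CPM per kb (SD, n = 3), while in sgBap1-Veh livers they stood at 166.6 ± 41.68 and 193.3 ± 61.46 CPM per kb (n = 2). The length used was 1085 bases for Mt1 and 511 bases for Mt2, and which transcripts the livers expressed was not tested. By counts Mt1 exceeded Mt2 in every liver, so the order of the pair per kilobase rests on these lengths. Slc39a14 followed with group means of 60.75 to 84.27 CPM per kb. Slc30a1 (7.895 to 12.79), Slc30a10 (3.793 to 6.522) and Mtf1 (2.098 to 2.918 CPM per kb) were far lower.

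Genes were also ranked by how closely their log2 CPM, centred on its mean over the 10 livers, followed each of the 6 (root mean square distance, 12027 genes, mean count 100 or more). For Mt2 the closest were Tmc7 (0.30), Mt1 (0.37) and Gm43305 (0.42), against a spread of Mt2 around its own mean of 0.84. For Mt1 they were 4921524J17Rik (0.32), Ccdc134 (0.36) and Map1lc3a (0.37), against 0.57, so the nearest partner of Mt2 among the 6 was not among the first 3 of Mt1. Mtf1 was followed most closely by Xpo7, Arl6ip6 and Coa5 (0.06 to 0.07), Slc30a1 by Mcat, Traf3ip1 and 2810402E24Rik (0.06 to 0.07), Slc30a10 by Slc17a3, Stra6l and Cmah (0.20 to 0.21), and Slc39a14 by Plcxd2, Sdc4 and Gm44805 (0.11 to 0.13). These distances describe the same 10 livers, whose group differences all genes share.

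The other metallothioneins were all but silent: Mt4 had 0 counts in every liver, and Mt3 had 0 counts in the vehicle livers and at most 4 counts in a CCl4 liver, so neither entered the tests. Of 8 other ZnT genes 6 were tested, and with CCl4 4 rose (Slc30a3, Slc30a4, Slc30a5 and Slc30a7) and 1 fell (Slc30a9) in NTC and likewise in sgBap1 livers, while Slc30a6 was called in neither (0.03 and -0.04). The median log2 fold changes were 0.41 and 0.52 beside 0.03 and 0.04 for all genes. In NTC and sgBap1 livers, 27.4% and 29% of all genes were called higher and 26.6% and 28% lower. Slc30a5 and Slc30a7, which load zinc into the secretory pathway, rose by 0.41 and 0.42 in NTC and by 0.50 and 0.54 in sgBap1 livers. Slc30a9 fell by 0.31 and by 0.34, a direction that turned with library size as the only scaling (0.16 and 0.14), under which 5 of the 6 were called higher in each genotype.

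Slc30a4, a transporter that moves zinc into vesicles, was 13.5 and 16.02 CPM in NTC-Veh, 10.39 and 10.25 CPM in sgBap1-Veh, 27.08, 27.56 and 33.49 CPM in NTC-CCl4 and 36.44, 45.93 and 34.35 CPM in sgBap1-CCl4 livers. No groups overlapped, and all CCl4 livers were above all vehicle livers. The sgBap1 livers were below the NTC livers with vehicle and above them with CCl4, a layout of 1.3% of all genes tested. It rose 1.99-fold with CCl4 in NTC (log2 0.99, SE 0.15, adjusted p = 0.0002861) and 3.77-fold in sgBap1 livers (1.91, SE 0.16, adjusted p = 5.741e-06; 1.78 without sgBap1-CCl4 replicate 2). Slc30a3, a vesicular zinc transporter gene of low level here (0.2994 to 0.9699 CPM with vehicle and 2.26 to 4.102 CPM with CCl4), rose by 1.76 in NTC and 3.32 in sgBap1 livers.

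Of 13 other ZIP genes 12 were tested. With CCl4, 6 rose and 2 fell in NTC livers (median 0.37), and 7 rose and 1 fell in sgBap1 livers (median 0.56). The shares of all genes called higher and lower were 27.4% and 26.6% in NTC and 29% and 28% in sgBap1 livers. With library size as the only scaling, 8 were called higher and none lower in NTC livers and 9 higher and 1 lower in sgBap1 livers. Slc39a6, whose product ZIP6 is a plasma membrane zinc importer, led the rises. It was 2.886 and 2.328 CPM in NTC-Veh, 2.745 and 2.695 CPM in sgBap1-Veh, 8.379, 10.95 and 11.16 CPM in NTC-CCl4 and 13.71, 16.38 and 11.1 CPM in sgBap1-CCl4 livers. The CCl4 livers of both genotypes lay far above all vehicle livers. The log2 fold changes were 1.96 (SE 0.21, adjusted p = 3.192e-05) in NTC and 2.34 (SE 0.21, adjusted p = 1.147e-05) in sgBap1 livers.

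Slc39a10 (ZIP10), a relative of ZIP6, rose by 1.45 and 1.27 in NTC and sgBap1 livers, and Slc39a5 (ZIP5) by 1.52 and 1.11. The more abundant Slc39a1 (ZIP1, at the plasma membrane) rose by 0.63 and 0.78, Slc39a7 (ZIP7, which releases zinc from the endoplasmic reticulum) by 0.62 and 0.69 and Slc39a11 by 0.50 and 0.60. Slc39a13 rose by 0.52 in sgBap1 livers and differed by 0.24 in NTC livers (adjusted p = 0.07129). Slc39a8 (ZIP8, the closest relative of ZIP14) fell by 0.26 in NTC livers at an adjusted p of 0.04998, a call kept in 3 of 9 other settings, and differed by -0.16 in sgBap1 livers. The other ZIP gene that fell was Slc39a2, to 0.471 and 0.379 times its vehicle level, named after its values were seen because its mean count was under 100.

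**Figure D5:**
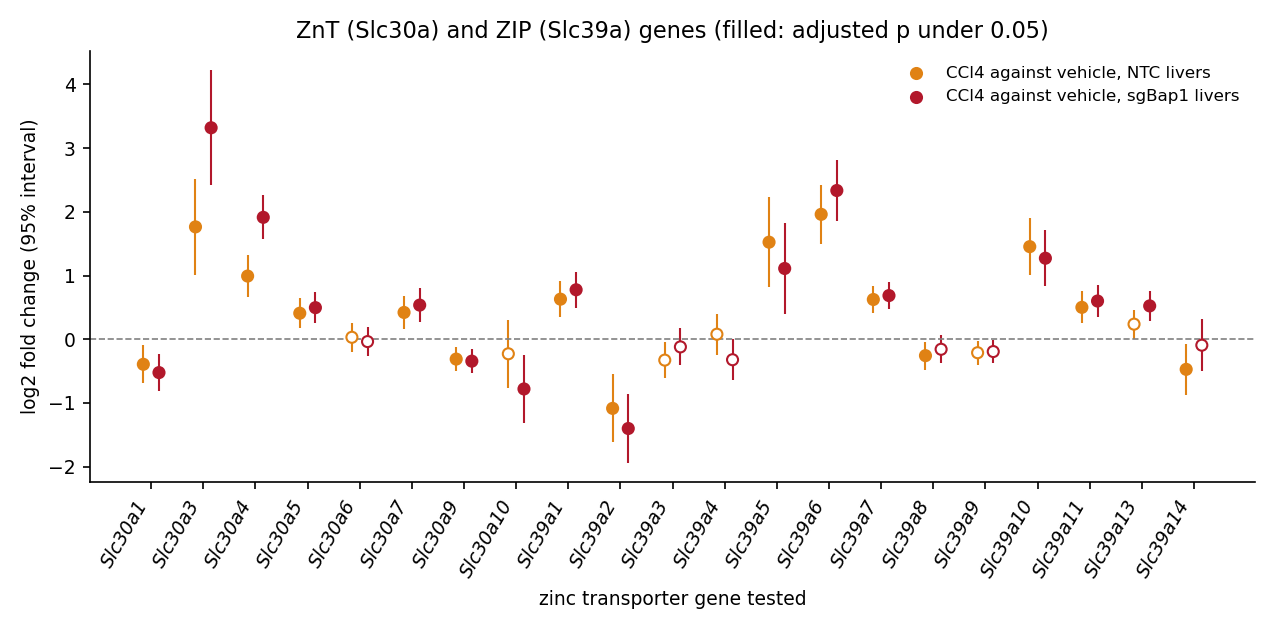
Log2 fold change with CCl4 of each ZnT (Slc30a) and ZIP (Slc39a) gene tested, in NTC (orange) and sgBap1 (red) livers. Points are the values fitted by edgeR, lines 95% intervals, and filled points have an adjusted p under 0.05. Slc30a3, Slc30a4, Slc39a6, Slc39a5 and Slc39a10 stand highest, while Slc30a1, Slc30a10 and Slc39a14 lie at or below 0.

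Of 6 other genes linked to MTF1, 5 rose with CCl4 in NTC livers (Csrp1, Gclc, Ndrg1, Selenoh and Slc39a10, median 1.53). In sgBap1 livers 4 rose (the same without Gclc, median 1.61). None fell, and Selenow was called in neither genotype (-0.11 and -0.17). Among all genes, 27.4% were called higher in NTC and 29% in sgBap1 livers. Csrp1, a LIM domain protein gene, rose by 2.15 and 1.95 and Selenoh, a nuclear selenoprotein gene, by 2.06 and 2.04 in NTC and sgBap1 livers. Ndrg1, a stress response gene, rose by 1.61 and 2.55. Gclc, which encodes the catalytic subunit of the enzyme that starts glutathione synthesis, rose by 1.43 in NTC livers, a call kept in 7 of 9 other settings, and differed by 0.64 in sgBap1 livers (adjusted p = 0.2311). In NTC livers these 5 genes rose while Mt1 and Mt2 were not called. The list does not separate genes that MTF1 raises from genes that it lowers, and MTF1 activity was not measured. The marker shifts given above ran with these rises, and their part was not tested.

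Of 11 copper handling genes, 2 rose and 5 fell with CCl4 in NTC livers (median -0.24). In sgBap1 livers 2 rose and 6 fell (median -0.40). Calls in either direction made up 53.9% of all genes in NTC and 57% in sgBap1 livers. With library size as the only scaling, 5 of the copper genes rose and 3 fell in NTC and 5 rose and 4 fell in sgBap1 livers. Ccs, the copper chaperone of superoxide dismutase, fell by 1.89 and 2.17, and Sco2, which delivers copper to cytochrome oxidase, by 1.28 and 1.32. Atp7a, a copper-exporting ATPase gene, rose by 1.03 and 1.11. The other gene that rose was Cp, for ceruloplasmin, by 0.85 and 0.66, named after its values were seen.

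Genes that respond to glucocorticoids, which also induce metallothioneins, split with CCl4. Of 9, 3 rose and 4 fell in NTC livers, where 53.9% of all genes were called. In sgBap1 livers, where 57% were called, 3 rose and 2 fell (5 and 2 with library size as the only scaling). Pdk4, a kinase that restrains pyruvate oxidation, rose by 1.83 and 3.37 (the latter 2.77 without sgBap1-CCl4 replicate 2), and Tat, tyrosine aminotransferase, fell to 0.31 and 0.379 times its vehicle level. Tsc22d3, which encodes GILZ, fell by 1.54 in NTC livers and was also called lower in sgBap1 livers (log2 -1.32). Dusp1, a phosphatase of MAP kinases, rose by 1.39 in sgBap1 livers and was also called higher in NTC livers. Per1, a clock gene, was called between genotypes: with CCl4 it was 69.01, 78.35 and 66.13 CPM in sgBap1 against 34.43, 29.16 and 31.54 CPM in NTC livers (log2 1.17, SE 0.09, adjusted p = 0.002867).

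Of 10 genes of the interleukin 6 and acute-phase response, 4 rose and 1 fell with CCl4 in NTC livers. In sgBap1 livers 5 rose and none fell. Higher calls covered 27.4% of all genes in NTC and 29% in sgBap1 livers, and lower calls 26.6% and 28%. With library size as the only scaling 7 were called higher and none lower in NTC livers. Lcn2, an iron-sequestering acute-phase protein gene, rose by 3.38 and 2.99, and Socs3, the feedback inhibitor of interleukin 6 signalling, by 1.71 and 2.29. Saa1, for serum amyloid A, fell by 1.59 in NTC livers, a call kept in 4 of 9 other settings. Steap4 rose by 0.77 in sgBap1 livers and was also called higher in NTC livers. Socs3, Lcn2, Hp and Steap4 rose in both genotypes, and Saa2, Orm1, Orm2 and Hamp were called in neither. The part of interleukin 6 in the levels of Mt1, Mt2 and Slc39a14 was not tested.

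Between the genotypes and for the interaction, edgeR called Per1, with CCl4, and no other gene of these lists. At an unadjusted p under 0.05, in the order vehicle, CCl4 and interaction, there were 2, 1 and 2 of the 6 other ZnT genes, 2, 2 and 0 of the 12 other ZIP genes, 0, 2 and 0 of the 6 MTF1-linked genes, 0, 3 and 0 of the 11 copper genes, 2, 4 and 4 of the 9 glucocorticoid genes and 1, 2 and 0 of the 10 acute-phase genes. The shares of all genes tested, in the same order, were 12.3%, 14% and 10.4%. DESeq2's Wald test also called Klf9 with vehicle, Ndrg1, Dusp1 and Tat with CCl4, and Slc30a4, Klf9 and Per1 for the interaction, genes named here for that call. Slc30a4, the vesicular zinc transporter, was thus the list gene of zinc transport that shared the direction and the DESeq2 interaction call of Mt1 and Mt2.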

How the data were processed

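Total liver RNA of 10 mice was sequenced from poly(A) libraries of a stranded kit. Per the study's methods and processing notes, the authors aligned reads with STAR 2.7.6a to GRCm38 and quantified them with Salmon 1.4.0, and the deposited table holds Salmon's expected counts (estimated counts) per gene symbol, unnormalized; 9.22% of values were not whole. The strand setting of Salmon is not given in the sources used here. After rounding, edgeR 4.0.16 was run in R 4.3.3 (filterByExpr, TMM, estimateDisp, glmQLFit with robust = TRUE, quasi-likelihood test, two-sided, Benjamini-Hochberg over 17015 genes, threshold 0.05), with the 4 groups in the same model. The scripts were checked on simulated data. DESeq2 1.42.0, limma-voom 3.58.1, other scalings, filters and designs, and each liver left out, were tried as alternatives. Ratios were tested by exact permutation in Python 3.11.15.

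The 6 genes and all lists were chosen with earlier results of these data known. Named besides them were list genes of zinc transport or linked to MTF1 called in any comparison with a mean of at least 100 counts, the 3 largest called changes of each other list in the comparison described, and the 3 genes most alike each of the 6, with exceptions marked. Levels per kilobase used the longest coding transcript of GENCODE vM21. Log2 CPM values carried a prior count of 2.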

Additional observations from a re-analysis of the deposited data

Results flagged for a closer look

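Mt1 and Mt2 were lower in sgBap1 than in NTC livers with vehicle and higher with CCl4. The genotypes did not overlap within either treatment. The difference between the 2 effects, the interaction, was 1.782 on the log2 scale for Mt1 (edgeR, adjusted p = 0.1177) and 2.213 for Mt2 (adjusted p = 0.1351), so neither passed the correction, while DESeq2's Wald test gave adjusted p of 0.0002362 and 0.0001199. Without sgBap1-CCl4 replicate 2 the edgeR values were 1.83 and 2.278, and with vehicle the sgBap1 difference fell in size to -0.478 for Mt1 and -0.5541 for Mt2 without NTC-Veh replicate 1.

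The same opposite layout was seen for Slc30a4, a vesicular zinc transporter gene, with an interaction of 0.9219 (edgeR, adjusted p = 0.1291; DESeq2, 0.012). For Klf9, a glucocorticoid-induced transcription factor gene, the interaction was 0.9174 (edgeR, adjusted p = 0.1768; DESeq2, 0.02214). Of all genes tested, 222 (1.3%) shared this layout and 234 (1.38%) had the reverse.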

How the results depend on the processing

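Besides leaving out livers, 9 alternatives (8 for the interaction) gave 264 values for the 6 genes, of which 240 kept direction and side of the threshold, 6 lost and 5 gained the call, and 13 changed sign. Leaving out each of the 10 livers gave 300 values, of which 275 kept both, 17 lost the call and 8 changed sign. Mt1 and Mt2 with CCl4 in sgBap1 livers were called under all 9 alternatives and without any liver. The number of the 6 genes called with CCl4 in NTC livers, 2, was 1 with library size alone, with no filter beyond 1 count in total, with the quasi-likelihood of edgeR 3 and with only the 2 groups compared, and 0 to 2 without a liver (0 without NTC-Veh replicate 1, NTC-CCl4 replicate 1 or NTC-CCl4 replicate 2). With CCl4 in sgBap1 livers it was 5, 2 with library size alone, 4 with no filter beyond 1 count in total (Mtf1 lost), and 2 to 5 without a liver (2 without sgBap1-Veh replicate 2). DESeq2's Wald test raised it from 0 to 1 for sgBap1 with vehicle, to 2 with CCl4 and to 2 for the interaction, while leaving out livers kept all 3 at 0.

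Signs changed as follows, and the cause was not tested except that library size alone moved all genes upward with CCl4. With CCl4 in NTC livers and library size alone the log2 values were 0.4695 for Mt2, 0.294 for Mtf1, 0.08253 for Slc30a1, 0.2532 for Slc30a10 and 0.01157 for Slc39a14, and in sgBap1 livers 0.1973 for Mtf1 and 0.3829 for Slc39a14. Mt2 with CCl4 in NTC livers, near 0, was 0.01053 with limma-voom, and -0.43 to 0.54 without a liver (0.1143, 0.1209 and 0.5439 where positive). Slc30a10 in sgBap1 against NTC livers with vehicle, also near 0, was 0.007956 with DESeq2 size factors, 0.01109 with library size alone, 0.006244 with DESeq2's Wald test, 0.004055 with limma-voom and 0.01171 with the replicate block, and 0.1443, 0.02575, 0.0007198 and 0.0003121 without NTC-Veh replicate 1, sgBap1-Veh replicate 1, NTC-CCl4 replicate 3 or sgBap1-CCl4 replicate 2, the lowest value without a liver being -0.1366 (NTC-Veh replicate 2). The interaction of Slc30a1 was -0.2838 to 0.04375 without a liver, positive without sgBap1-Veh replicate 2.

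With vehicle, the sgBap1 difference without a liver ran from -1.218 to -0.478 for Mt1 and from -1.532 to -0.5541 for Mt2. Leaving out sgBap1-CCl4 replicate 2 for the list genes was chosen after seeing the data.

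Replicate numbers did not pair the samples: deviations from the group mean correlated at -0.149 to 0.102 over 13 pairs of same-numbered livers, 2 of them over 0.1. The fit with the replicate number as a block called the same number of the 6 genes in every comparison. Groups of 2 and 3 livers leave wide intervals, and a p that missed the threshold does not show that the values did not differ.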
